A study of Mus musculus with 2 samples.

Results

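Histone acetylation is set by a small family of enzymes and read by bromodomain proteins, and the levels of their mRNAs were measured here in mouse oocytes kept under external pressure. The genes were taken by symbol: every row beginning with Hdac, Sirt, Kat or Brd and then a digit (or the t of Brdt), with Ep300 and Crebbp added. This gave 42 of the 53832 genes in the table. Of these, 36 are the acetyltransferases, deacetylases and readers described below, and 6 are other rows that carry such a symbol. The series holds 1 group of 2 poly(A)+ RNA libraries, replicates 1 and 2. Both were made from oocytes, named small oocytes in the titles, that were sorted on a Stella-CFP reporter after female embryonic mouse ovaries had been cultured at 33.3 kPa of external pressure. The sources used here do not give strain, age or the number of ovaries, and nothing says that the libraries came from separate cultures, so the spread between them may be technical. No library without added pressure was analysed here, so the values are levels under pressure and say nothing of its effect.

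Acetyl groups on histone lysines weaken the contact of histones with DNA and mark active promoters and enhancers. Lysine acetyltransferases, the writers, take the acetyl group from acetyl-CoA. Deacetylases, the erasers, remove it, either with a zinc ion in the active site (the HDACs) or with NAD (the sirtuins). Bromodomain proteins bind acetylated lysines and bring transcription factors and remodelling complexes to them. Histone acetylation changes over oocyte growth and is largely removed at meiotic maturation, and in mouse oocytes genetic work has placed more weight on HDAC2 than on HDAC1.

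The libraries held 5019462 and 5274338 expected counts in replicates 1 and 2, and a count of 3 corresponds to 0.598 and 0.569 CPM (counts scaled to a common library total). Levels are given as TPM, the expected count divided by the merged exon length and rescaled within the library. Where 2 values stand together they are those of replicates 1 and 2, and a mean ± SD is over both (n = 2). The oocyte identity of the libraries was checked on markers. All 7 oocyte markers were present, from Ddx4 at 242 and 268 TPM to Zp3 at 1360 and 1792. The 5 granulosa markers summed to 39 and 19 counts, with Foxl2 at 10 and 5 and Fshr at 0. The stroma markers summed to 16 and 29 with Tcf21 at 0, and the endothelial markers to 43 and 36 with Emcn at 0. The highest of these were Amhr2 at 4.91 and 0.834 TPM, Pecam1 at 3.35 and 2.24, Nr0b1 at 2.56 and 2.16 and Col1a1 at 1.32 and 2.29. Some of the genes described below lie at similar levels, such as Kat2b at 2.26 and 3.32 TPM. Whether mRNA at such levels came from other cells was not tested. The leukocyte markers Ptprc, Tyrobp and Adgre1 had 0 counts. In sorted bulk RNA of this kind, fewer cells that express a gene and less RNA per cell cannot be told apart.

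The first question is which of these enzymes and readers had mRNA in the oocytes. Of the 36 genes, 34 were expressed, meaning 1 TPM or more in each library, against 53.5% of the 21722 protein-coding genes measured. Their median level was 32.9 TPM, against 2.57 TPM for all protein-coding genes and 24.2 TPM for those expressed. Together they held 0.324% and 0.321% of the counts. The 10 acetyltransferases and the 8 readers were all expressed, with medians of 43.0 and 37.3 TPM. Of the 18 deacetylases 16 were expressed, with a median of 21.2 TPM. On the log2(TPM + 1) scale the acetyltransferase median stood 1.04 ± 0.08 above the deacetylase median, with 0.98 and 1.10 in the libraries. That SD covers the libraries only, and within each class single genes ranged far more widely, from Kat2b at 2.79 TPM to Kat8 at 254 among the acetyltransferases and from Sirt5 at 0.892 to Hdac2 at 183 among the deacetylases. The sums ran the other way, 632 ± 2.19 TPM for the acetyltransferases and 669 ± 13.4 TPM for the deacetylases, and the 4 class I deacetylases alone had a median of 42.0 TPM. The genes outside the threshold were Hdac7, at 1.37 and 0.742 TPM, and Sirt5, at 1.24 and 0.549 TPM. The nearest gene inside it was Hdac9, at 1.90 and 2.43 TPM.

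**Figure D1:**
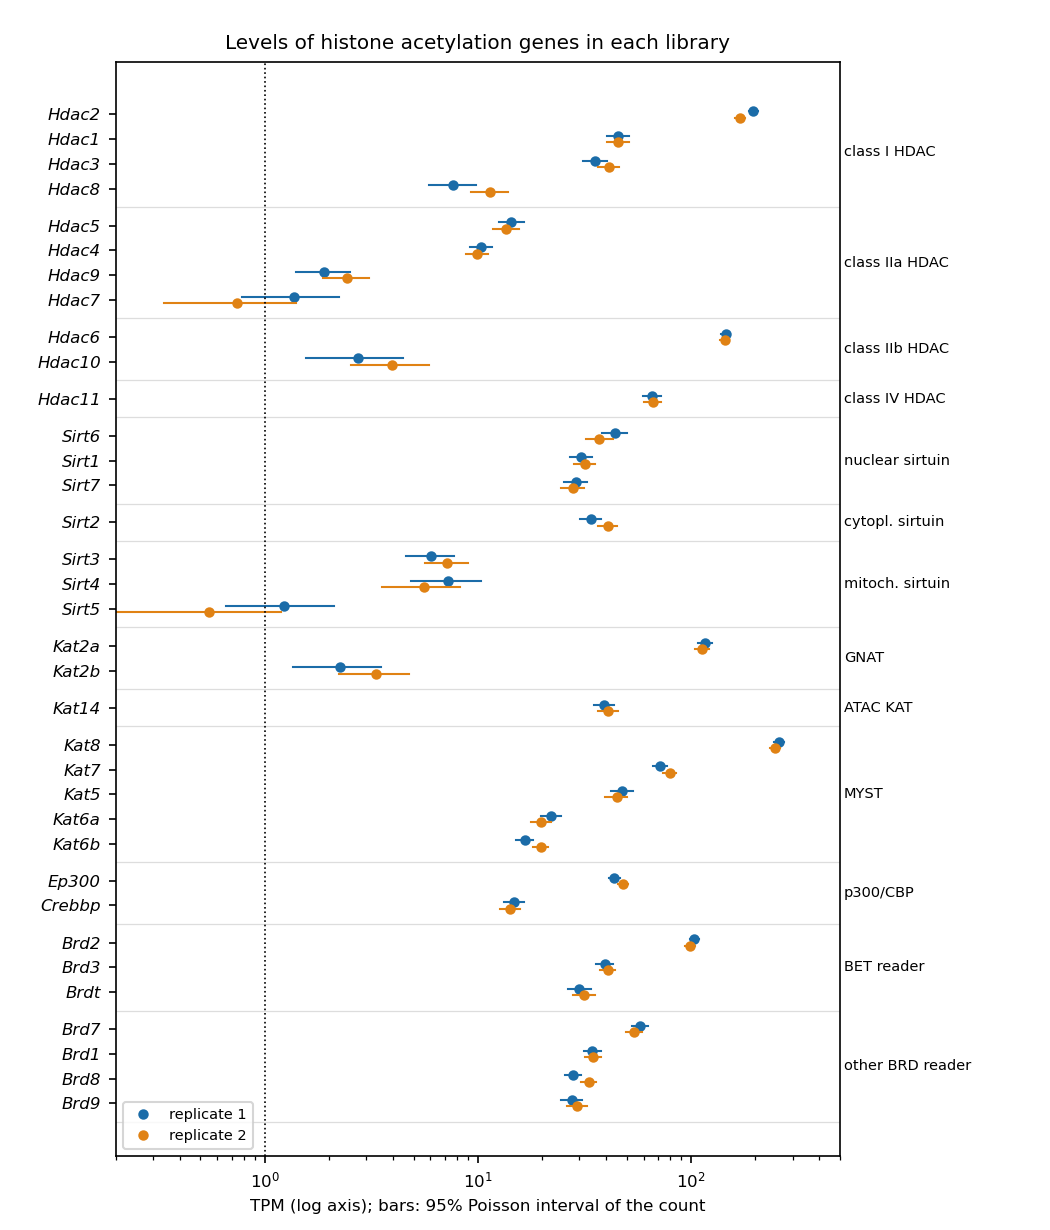
TPM of 35 of the 36 genes in replicate 1 (blue) and replicate 2 (orange) on a log axis, grouped by class, with bars for the 95% Poisson interval of each count and a dotted line at 1 TPM. Kat8 at 260 and 248 TPM and Hdac2 at 196 and 170 TPM lie farthest right, and Hdac7 and Sirt5 are the only genes shown with a value left of the line.

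The levels spanned more than 2 orders of magnitude, and in TPM the upper end of the order was the better resolved. Kat8 led with 260 and 248 TPM, followed by Hdac2 with 196 and 170, Hdac6 with 145 and 144, Kat2a with 116 and 112, Brd2 with 104 and 98.8, Kat7 with 71.4 and 79.4 and Hdac11 with 65.9 and 66.3. No neighbours among these 7 had values that overlapped between the libraries. The order is one of levels per length: in CPM, Kat8 stood at 258 and 243, below Hdac6 at 291 and 285, Hdac2 at 302 and 259 and Brd2 at 280 and 263. The CPM values of Hdac2 overlapped those of Hdac6 and those of Brd2, so Hdac2 could not be ordered against either on that scale. In TPM, Kat8 lay above 95.8% of expressed protein-coding genes and Hdac2 above 93.5%. Further down, Brd7 at 57.9 and 54.2 TPM lay above Kat5 at 47.5 and 44.8 without overlap. Of the 33 neighbouring pairs in the order of the 34 expressed genes, 17 overlapped. From Sirt6 at 43.9 and 37.2 TPM down to Brd1 at 34.5 and 34.7, each of the 6 genes overlapped its neighbour, Kat14, Brd3, Hdac3 and Sirt2 standing between them.

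Among the zinc-dependent deacetylases, mRNA was concentrated in a few genes. Hdac2 (ENSMUSG00000019777, GRCm38 chromosome 10, 36974544 to 37001889, plus strand), a class I enzyme of the SIN3, NuRD and CoREST corepressors, held 37.2% and 33.4% of the summed TPM of the 11 HDAC genes. Hdac6 (ENSMUSG00000031161, chromosome X, 7930120 to 7947889, minus strand), the class IIb enzyme that deacetylates tubulin in the cytoplasm, held 27.6% and 28.3%. Hdac11, the single class IV enzyme and known for removing fatty acyl groups, held 12.5% and 13.03%. These shares are of levels per merged exon length, and they depend on that choice of length.

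Hdac1 (ENSMUSG00000028800, chromosome 4, 129516104 to 129542713, minus strand), the close paralogue of Hdac2, stood at 45.6 and 45.6 TPM, with 271.39 and 282.13 counts. Hdac1 minus Hdac2 was -2.08 and -1.87 on the log2(TPM + 1) scale, a mean difference of -1.98 ± 0.15, and the pair did not overlap in either library. Its counts are fractional, as are those of the processed pseudogene Hdac1-ps, at 21.03 and 27.09, so each may hold reads that also match other genes, and which ones was not traced. With all of those counts given to Hdac1, a choice made after the data had been seen, its level was 49.1 and 50.02 TPM and the difference was -1.98 in replicate 1 and -1.75 in replicate 2.

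Hdac3, the catalytic subunit of the NCoR corepressor, stood at 35.6 and 41.1 TPM. Hdac1 minus Hdac3 was 0.35 and 0.15 on the log2(TPM + 1) scale, but its mean of 0.25 was 0.020 without length scaling and 0.82 with the length of the longest transcript, so the size of this difference is not settled. Hdac8, which deacetylates the cohesin subunit SMC3, was the lowest class I gene at 7.66 and 11.4 TPM, with 64 and 99 counts. Hdac6 exceeded its class IIb relative Hdac10, known as a polyamine deacetylase, by 5.08 ± 0.30 on the same scale, with 145 and 144 against 2.74 and 3.96 TPM. Hdac10 had 16 and 24 counts, so its level carries a wide counting interval, 1.57 to 4.45 TPM in replicate 1 and 2.54 to 5.89 in replicate 2.

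The class IIa deacetylases, which have weak activity on acetyl-lysine and act as signal-dependent partners of MEF2 factors, were low as a group. Their 4 genes summed to 28.04 and 26.7 TPM, against 285 and 268 TPM for the 4 class I genes. Hdac5 stood at 14.4 and 13.6 TPM and Hdac4 at 10.4 and 9.94. Hdac4 set against Hdac5 gave -0.42 ± 0.01 on the log2(TPM + 1) scale, -0.18 with the length of the longest transcript, but 0.38 on log2(CPM + 1) without length scaling, since Hdac4 has the longer exons (15813 against 8780 bases) and the higher count. An antisense-strand lincRNA annotation, Gm26720, covers 22.4% of the merged exon length of Hdac4 and is not among the genes counted. The libraries are strand-specific per the labels' protocols, while the sources used here do not say whether the counting used strand.

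The sirtuins showed a split by compartment. The 3 nuclear genes summed to 103 and 96.8 TPM and the cytoplasmic Sirt2 stood at 33.9 and 40.7, whereas the 3 mitochondrial genes together reached 14.49 and 13.3 TPM. Sirt6, an enzyme for acetylated H3 at telomeres and in DNA repair, stood at 43.9 and 37.2 TPM. Sirt1, which acts on histones and on transcription factors such as p53 and FOXO proteins, stood at 30.5 and 31.8, and Sirt7, a nucleolar enzyme, at 28.8 and 27.8. The counts of Sirt7, 256.27 and 257.25, are fractional. It shares 124 exon bases (2.41%) with Mafg on the same strand, which had 355.73 and 306.75 counts. The counts of Sirt7 may thus include reads that also match Mafg. Sirt1 set against Sirt6 gave -0.37 ± 0.20 on the log2(TPM + 1) scale, negative in both libraries, -0.65 with the length of the longest transcript and 0.55 without length scaling. Sirt2, a tubulin deacetylase that also acts on H4, overlapped both Hdac3 and Brd1 in level.

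Of the mitochondrial sirtuins, Sirt3, the main deacetylase of that compartment, stood at 6.01 and 7.18 TPM, and Sirt4 at 7.24 and 5.58, so these 2 could not be ordered. Sirt5, which removes succinyl and malonyl groups, had 13 and 6 counts. Sirt3 exceeded Sirt5 by 2.03 ± 0.53 on the log2(TPM + 1) scale, with 1.65 in replicate 1 and 2.40 in replicate 2. Exons of Sirt3 lie opposite exons of Ric8a (418 bases) and Psmd13 (342 bases). These genes had 179 and 202 counts and 614 and 657 counts, so the counts of Sirt3 may depend on whether the counting used strand.

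**Figure D2:**
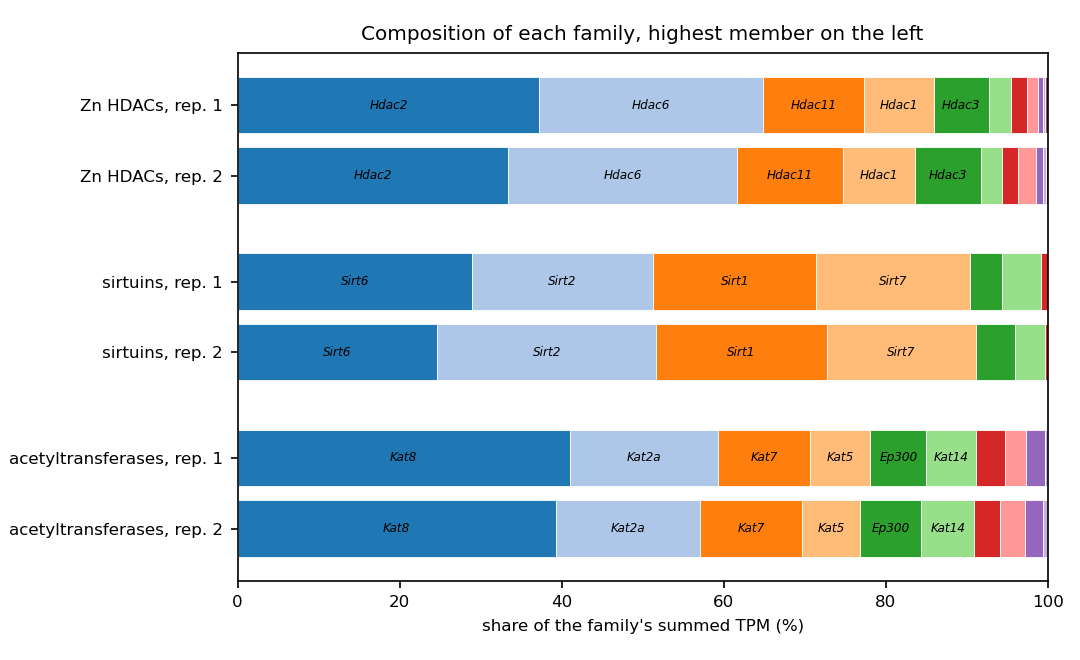
Share of each gene in the summed TPM of the HDACs, sirtuins and acetyltransferases, per library, with the highest member of the mean on the left and segments above 5.5% labelled. Hdac2 and Hdac6 make up most of the HDAC bars and Kat8 is the largest writer at 41.0% and 39.3%, whereas no sirtuin exceeds the 28.9% of Sirt6 in replicate 1.

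Among the acetyltransferases, Kat8 (ENSMUSG00000030801, chromosome 7, 127912516 to 127925837, plus strand) had the highest TPM of the whole set, from 1297 and 1284 counts on 2891 bases of merged exons, and the fourth highest CPM. It encodes MOF, the MYST-family enzyme that acetylates H4 lysine 16 in the MSL and NSL complexes. It held 41.0% and 39.3% of the summed TPM of the 10 writers. Kat2a (ENSMUSG00000020918, chromosome 11, 100704746 to 100712465, minus strand), the GCN5 enzyme of the SAGA and ATAC complexes, held 18.3% and 17.8%, and Kat7 (HBO1, an H3 lysine 14 enzyme) held 11.3% and 12.6%.

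The GNAT pair was the most uneven pair of writers. Kat2a stood at 116 and 112 TPM, against 2.26 and 3.32 TPM for its paralogue Kat2b (PCAF), which had 19 and 29 counts. The difference was 4.94 ± 0.32 on the log2(TPM + 1) scale, and the ratios of TPM were 51.4 and 33.8. Kat2b-ps, a processed pseudogene of Kat2b, had 0 counts in both libraries. Kat14, the second acetyltransferase of ATAC, stood at 39.2 and 41.0 TPM. It shares 14.7% of its merged exon length with Pet117 on the same strand, which had 0 counts in both libraries. Whether its counts include reads from Pet117 was not tested.

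The p300/CBP pair was uneven to a smaller degree. Ep300, a coactivator that acetylates H3 at enhancers, stood at 43.7 and 48.1 TPM, against 14.8 and 14.2 TPM for Crebbp, with a difference of 1.60 ± 0.13 on the log2(TPM + 1) scale. Kat5 (TIP60), the enzyme of the NuA4 complex, stood at 47.5 and 44.8 TPM and overlapped Ep300. It shares 12.1% of its merged exon length with Rnaseh2c on the other strand, which had 188 and 133 counts. Kat6a (MOZ) stood at 22.01 and 19.9 TPM and Kat6b (MORF) at 16.6 and 19.8. Their difference, 0.19 ± 0.27, was smaller than its spread, and it was -0.66 without length scaling and -0.87 with the length of the longest transcript, so no order of these paralogues is given.

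Among the readers, the BET genes encode proteins with paired bromodomains that link acetylated chromatin to transcription elongation. Brd2 (ENSMUSG00000024335, chromosome 17, 34112023 to 34122634, minus strand) stood at 104 and 98.8 TPM, Brd3 at 39.4 and 40.6 and Brdt at 29.99 and 31.6. No values of these 3 overlapped between genes. Brd2 exceeded Brd3 by 1.32 ± 0.08 on the log2(TPM + 1) scale. Brd2 held 27.3% and 26.2% of the summed TPM of the 8 readers, Brd3 10.3% and 10.8%, and Brdt 7.87% and 8.37%. Brdt (ENSMUSG00000029279, chromosome 5, 107331159 to 107387058, plus strand) is best known from the testis, where it is needed for spermatogenesis. In these oocytes it had 265 and 290 counts and lay above 57.5% of expressed protein-coding genes.

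The other readers lay closer together. Brd7, a subunit of the PBAF remodelling complex, stood at 57.9 and 54.2 TPM, and Brd9, of the non-canonical BAF complex, at 27.6 and 29.3. Brd1, a scaffold of the HBO1 acetyltransferase, stood at 34.5 and 34.7, and Brd8, a NuA4 subunit, at 28.1 and 33.2. Brd8 overlapped both Brdt and Brd9 in level, while Brdt and Brd9 did not overlap each other.

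The 6 other rows that carry such a symbol were at or near the bottom. Brd3os had 8 and 10 counts (2.44 and 2.94 TPM) and Brd8dc 9 and 13 (2.14 and 2.98 TPM), so both passed the threshold of 1 TPM. The pseudogenes Kat2b-ps, Kat6b-ps1 and Kat6b-ps2 had 0 counts, where a count of 3 would have given 0.698 and 0.671, 0.506 and 0.487, and 1.09 and 1.04 TPM. Hdac1-ps, at 8.43 and 10.5 TPM, was the exception, and its counts, being fractional, are uncertain like those of Hdac1.

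Whether the genes share features before their start sites was described on the 250 bases upstream of RefSeq starts (GRCm38.p6). An entry was found for 30 of the 36 genes, and where a gene had several starts the one nearest to the 5′ end of the GENCODE gene was used. For Brd3, Sirt1, Kat6b and Hdac4 that start lay 15358 to 42669 bases from this end. The windows had a median GC content of 62.4%, against 56.0% over 16522 protein-coding genes and 60% over the 9216 of these that were expressed. They held 0 to 44 CpG dinucleotides. The windows of Hdac2 and Kat8, the genes with the highest TPM, and of the uneven paralogues Kat2a and Kat2b are shown 5′ to 3′ on the gene's strand, with each CpG in capitals. They lie at chr10:36974294-36974543 (plus), chr7:127912267-127912516 (plus), chr11:100712468-100712717 (minus) and chr17:53566721-53566970 (plus).
Hdac2: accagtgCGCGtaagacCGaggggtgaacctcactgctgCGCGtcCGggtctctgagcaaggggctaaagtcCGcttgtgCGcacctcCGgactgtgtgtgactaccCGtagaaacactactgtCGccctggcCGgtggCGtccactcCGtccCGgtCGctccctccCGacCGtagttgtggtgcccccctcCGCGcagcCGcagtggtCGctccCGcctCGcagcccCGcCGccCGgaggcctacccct
Kat8: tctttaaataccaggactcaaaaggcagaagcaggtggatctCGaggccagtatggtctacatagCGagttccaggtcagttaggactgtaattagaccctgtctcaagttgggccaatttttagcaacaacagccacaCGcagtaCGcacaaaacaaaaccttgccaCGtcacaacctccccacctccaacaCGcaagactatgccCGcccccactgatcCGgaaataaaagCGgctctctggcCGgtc
Kat2a: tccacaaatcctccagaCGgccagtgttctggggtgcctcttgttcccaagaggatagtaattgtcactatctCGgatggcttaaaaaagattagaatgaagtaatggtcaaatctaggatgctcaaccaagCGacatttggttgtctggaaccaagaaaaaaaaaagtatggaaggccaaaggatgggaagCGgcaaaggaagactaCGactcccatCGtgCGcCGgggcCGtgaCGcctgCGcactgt
Kat2b: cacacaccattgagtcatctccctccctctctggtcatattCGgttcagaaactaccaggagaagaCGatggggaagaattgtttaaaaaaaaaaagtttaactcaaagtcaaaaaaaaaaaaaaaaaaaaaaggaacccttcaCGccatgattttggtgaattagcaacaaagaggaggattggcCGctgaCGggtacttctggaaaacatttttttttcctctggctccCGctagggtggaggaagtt
These windows held 27 CpG for Hdac2, 10 for Kat8, 11 for Kat2a and 6 for Kat2b.

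Across the 30 genes, Spearman's rho between CpG number and mean TPM was 0.235, against 0.169 over the 9216 expressed protein-coding genes and 0.611 over 16424 protein-coding genes whether expressed or not. Genes are not independent replicates, and these values are descriptions. With a split at 10 TPM made after the values were seen, the 7 genes under it had a median of 6 CpG, and the 23 genes of at least 10 TPM a median of 22. The 4 windows with at most 6 CpG, those of Hdac7, Hdac8, Hdac9 and Kat2b, all belonged to genes under 10 TPM, and Hdac7 was not expressed. Windows with so few CpG made up 39.3% of all protein-coding genes and 14.1% of those expressed. Of the 6407 protein-coding genes with such a window 89.5% were under 10 TPM, and 48.5% of the 1301 expressed ones, so 4 of 4 is not a result about these genes. This depended on the start chosen. Over every RefSeq start, 3 genes (Hdac8, Hdac9 and Kat2b) kept to at most 6 CpG, Hdac7 had other starts with 5, 21 and 25, and the second start of Kat8 had 5. The counts are per gene and do not show which start was used.

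Exact motifs were searched on both strands of the same windows, and some overlap in GC-rich sequence. The GC box GGGCGG, a site of SP factors, was in 18 of 30 windows (60.0%), against 44.5% of 16522 promoters of the same length and 61.2% of those of expressed genes. The CCAAT box was in 12 (40.0% against 36.1%, and 37.6% for expressed genes). TATAAA was in 2 (6.67% against 11.9%, and 5.64% for expressed genes). The E-box CACGTG was in 3, those of Sirt1, Kat5 and Brdt (10% against 6.79%, and 8.87% for expressed genes). The ETS motif CCGGAAG was in 5 (16.7% against 9.53%, and 15.3% for expressed genes). TAATTG, bound by the oocyte factor NOBOX, was in 2 (6.67% against 6.32%, and 4.13% for expressed genes). The CRE TGACGTCA was in none, against 2.07%, and 2.95% for expressed genes. A match is a string of letters and not a bound site.

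**Figure D3:**
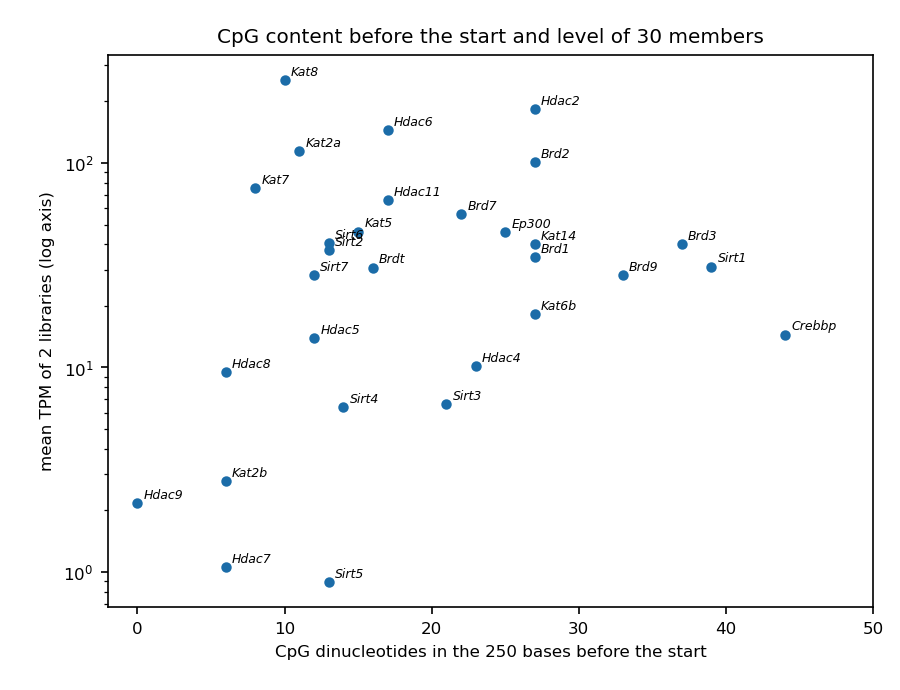
Number of CpG dinucleotides in the 250 bases before the chosen start against mean TPM of the 2 libraries (log axis) for the 30 genes with a RefSeq entry. The 4 genes with 6 CpG or fewer lie under 10 TPM, while those with more than 20 reach from Sirt3 at 6.60 TPM to Hdac2 at 183 TPM.

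The next comparison sets the enzymes beside the other genes of the pathway. The 14 lists hold 152 genes when each is counted once, and 146 of them (96.1%) were expressed, with a median of 37.3 TPM. Of the 15 SIN3 complex genes all were expressed, at a median of 55.9 TPM, from the histone-binding protein Rbbp7 at 206 and 191 and Sap30l at 185 and 170 to Arid4b at 11.4 and 9.72 and Arid4a at 6.19 and 7.74. Of the 10 NuRD genes 9 were expressed, at a median of 72.2 TPM. Mta1 led with 339 and 302 TPM and Mbd3 followed with 218 and 210, while the paralogue Mta2 stood at 11.6 and 12.4 and the helicase Chd5 had 7 and 4 counts.

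CoREST, which also holds HDAC1 or HDAC2, and the NCoR complex, which holds HDAC3, had lower medians. All 7 CoREST genes were expressed, at a median of 20.6 TPM, with the demethylase Kdm1a at 52.1 and 48.9 and Hmg20b at 41.9 and 41.8 above Rcor2 at 8.99 and 10.1 and Rcor3 at 9.14 and 9.74. All 5 genes of the NCoR complex were expressed, at a median of 30.4 TPM. Gps2 stood at 235 and 241 TPM and Tbl1xr1 at 36.03 and 30.7, above the scaffold Ncor1 at 20.6 and 22.4.

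The subunits of the acetyltransferase complexes were nearly all expressed. For SAGA and ATAC this was 20 of 20, at a median of 46.8 TPM, from Dr1 at 196 and 176 and Wdr5 at 171 and 185 to Yeats2 at 15.9 and 15.2 and Tada2b at 12.5 and 12.6. For NuA4 it was 16 of 16, at 67.7 TPM, from Dmap1 at 216 and 224 and Morf4l2 at 194 and 225 to Epc1 at 21.1 and 22.3 and Ing3 at 20.5 and 19.3. The 9 MSL and NSL subunits, which partner Kat8, had a median of 71.8 TPM and ranged from Mcrs1 at 184 and 181 and Kansl2 at 92.1 and 88.5 to Msl2 at 38.7 and 43.5 and Phf20 at 34.9 and 40.9. The MOZ and HBO1 subunits were lower, with 7 of 8 expressed at a median of 17.5 TPM, from Brpf3 at 64.0 and 62.6 and Jade3 at 53.6 and 48.0 to Ing5 at 15.9 and 15.4 and Jade2 at 15 and 6 counts.

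Further enzymes and readers outside the named families covered the same range. All 13 other acetyltransferases were expressed, at a median of 28.7 TPM. Hat1, which acetylates newly made H4 in the cytoplasm, stood at 233 and 211 TPM and Elp3 at 137 and 138, above the circadian factor Clock at 13.5 and 17.9 and Gtf3c4 at 8.97 and 10.1. Of 26 other bromodomain genes 25 were expressed, at a median of 20.7 TPM, with Trim28, the corepressor of KRAB zinc finger proteins, at 193 and 179 TPM and Brwd3 at 5.70 and 6.37. Trim66 had 6 and 23 counts. Sp140, a reader known from leukocytes, stood second in this list at 142 and 125 TPM. Its counts of 814.19 and 745.45 are fractional, so they may include reads that also match other genes, and the level is uncertain. The 3 leukocyte markers were at 0, and the source of the Sp140 reads was not tested.

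The readers with YEATS or double PHD domains had a median of 42.8 TPM (7 of 7), from Yeats4 at 166 and 161 and Dpf2 at 78.7 and 73.0 to Yeats2 and to Dpf1 at 6.35 and 5.29. The kinase complex P-TEFb, which frees paused RNA polymerase II, and its inhibitors were all expressed (7 of 7) at 48.6 TPM, from Larp7 at 157 and 140 and Mepce at 84.6 and 84.4 to Ccnt2 at 20.5 and 21.04 and Hexim1 at 12.9 and 12.3. For the cosubstrates, 6 of 7 acetyl-CoA genes were expressed at a median of 71.5 TPM. The citrate carrier Slc25a1 stood at 91.2 and 115 TPM and the pyruvate dehydrogenase subunit Pdhb at 96.7 and 87.0, against 7.86 and 6.91 for the acetate-using enzyme Acss2 and 2 and 1 counts for Acss1. The list of NAD supply and use had 7 of 9 genes expressed at a median of 4.58 TPM. Parp1, which consumes NAD, stood at 209 and 199 TPM and the salvage enzyme Nampt at 42.8 and 37.0, while Naprt had 1 and 7.22 counts and the hydrolase Cd38 had 0.

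**Figure D4:**
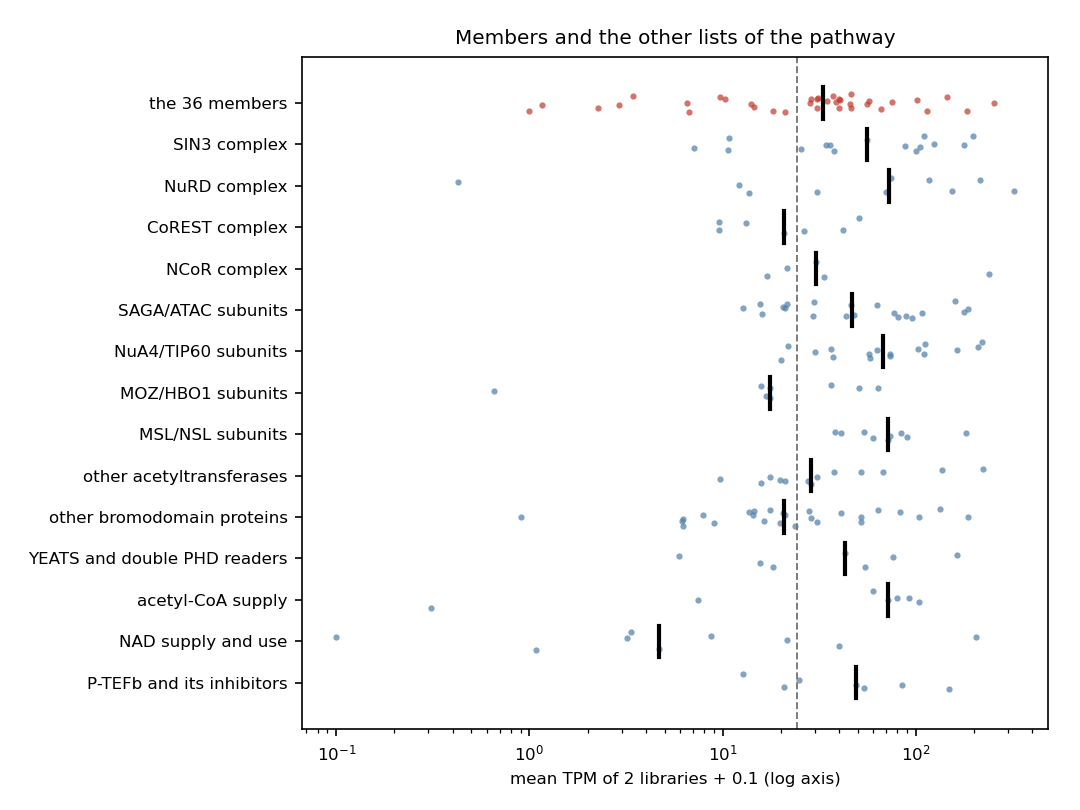
Mean TPM of both libraries, with 0.1 added for the log axis, of the 36 genes (red) and of the genes of the 14 other lists (blue), with black bars for list medians and a dashed line at the median of expressed protein-coding genes, 24.2 TPM. The medians run from 4.58 TPM for NAD supply and use to 72.2 TPM for NuRD, and the 36 genes lie at 32.9 TPM.

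The last comparison asks how far the 2 libraries of the same treatment differed in these genes, and it compares libraries, not conditions. Of the 36 genes 34 had enough counts to be tested, and Hdac7 and Sirt5 did not. In a two-sided exact binomial test adjusted over all 12182 genes tested by the Benjamini-Hochberg method, 0 of 34 differed by at least 2-fold, against 0.673% of all genes (0.246% higher and 0.427% lower in replicate 1). Without the fold minimum 1 of 34 differed, against 7.84% of all genes (3.59% higher and 4.25% lower), and 6 of 34 had an unadjusted p under 0.05, against 2516 of the 12182 genes. A negative binomial exact test of edgeR with a preset biological coefficient of variation of 0.1 also called 0 of 34 at 2-fold.

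Hdac2 was the gene that passed, with 1517 and 1365 counts. The log2 ratio of replicate 1 over replicate 2 was 0.22, with an SE from counting of 0.05 and a 95% interval of 0.11 to 0.33 (adjusted p = 0.0019, exact binomial test). This p allows for counting noise only, and the 12182 genes varied beyond it: their chi-square was 3.55 times the degrees of freedom and their common biological coefficient of variation 7.31%. Between the same libraries the log2 ratios of the oocyte markers were -0.39 for Zp3, -0.36 for Gdf9, -0.14 for Ddx4 and -0.12 for Nobox. They were 0.02 for Ybx2, 0.11 for Figla and 0.17 for Dazl. The granulosa markers had 39 and 19 counts in all, with Amhr2 at 17 and 3. The stroma markers had 16 and 29 and the endothelial markers 43 and 36. The part of any of these in the Hdac2 difference was not tested. The remaining 33 genes had log2 ratios of replicate 1 over replicate 2 between -0.56 for Hdac8 (adjusted p = 0.12, exact binomial test) and 0.38 for Sirt4 (adjusted p = 0.66, exact binomial test). Their intervals are wide where counts are low, from -1.04 to -0.09 for Hdac8 and from -0.43 to 1.23 for Sirt4. The ratio was above 0 for 18 genes and below 0 for 16, and its median was 0.003. The median size of the ratio was 0.10 for the 34 genes at a median of 335 counts, against 0.15 for all tested genes at a median of 199.5 counts.

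**Figure D5:**
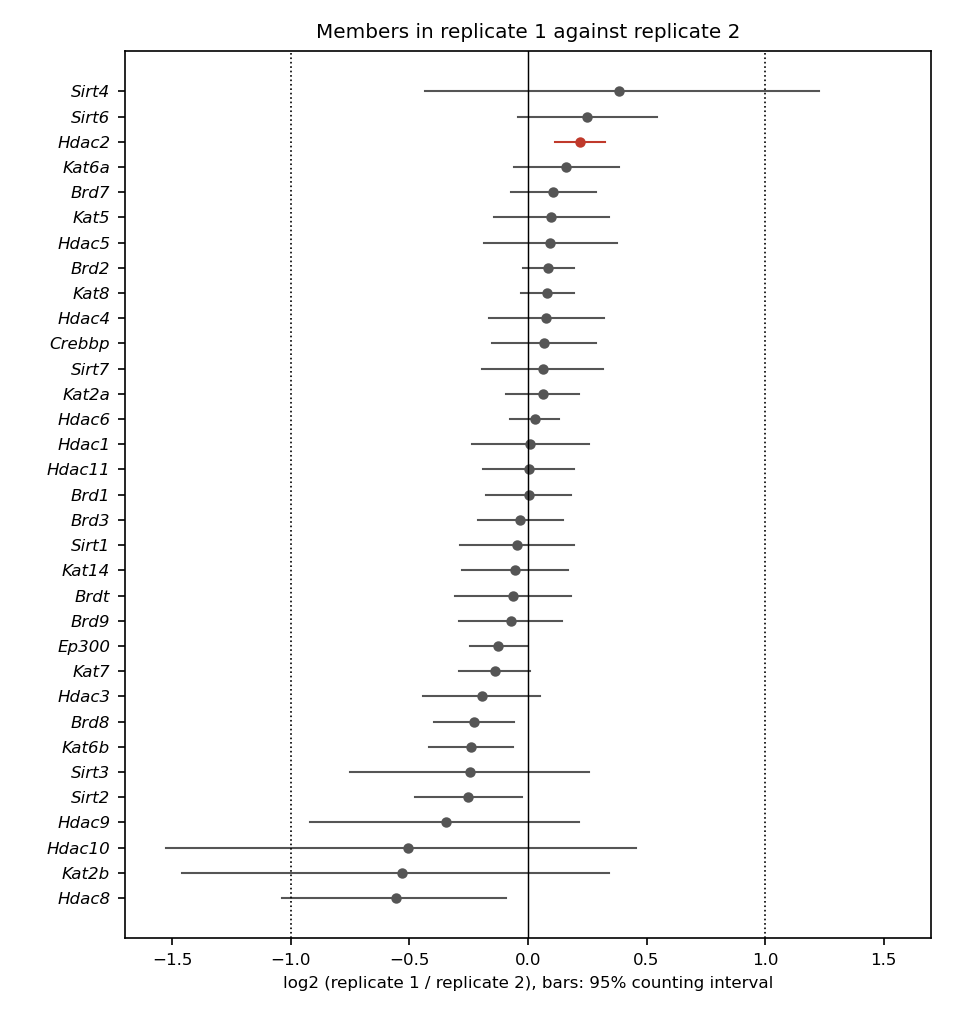
Log2 ratio of replicate 1 over replicate 2 for 33 of the 34 tested genes with 95% counting intervals, dotted lines at 2-fold either way, and Hdac2, at 0.22, in red as the gene with an adjusted p under 0.05. No point shown lies beyond the dotted lines, and the widest intervals belong to Hdac10, Kat2b and Sirt4, which have few counts.

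Among the 146 partner genes tested, 0 differed by at least 2-fold and 17 (11.6%) had an adjusted p under 0.05 in the exact binomial test, 8 higher and 9 lower in replicate 1, against 7.84% of all genes. This test finds smaller differences where counts are higher. The shares were not matched for counts, so they do not show that partner genes varied more. By list, the genes higher in replicate 1 were 2 of SIN3, 2 of NuRD, 3 of NuA4 and 1 of P-TEFb, while 2 of NuA4, 1 of MSL and NSL, 3 other acetyltransferases, 3 other bromodomain genes and 1 acetyl-CoA gene were lower, Taf1 standing in 2 lists. The other 6 lists had none past this test.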

How the data were processed

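RNA-seq of 2 libraries of 1 group was analysed. The authors deposited expected counts per gene, and the submitters' processing notes name fastp 0.20.0, STAR 2.7.7a, RSEM and build GRCm38, with the annotation release not given in the sources used here. RSEM divides reads that match several genes, so counts of near-identical genes are uncertain. Another 21 columns, which match none of the samples, were left out. Of 53832 genes, 53579 had their Ensembl ID in GENCODE M21 (GRCm38), which was used for names, coordinates and exon lengths, and 253 were not matched. TPM was computed from the counts and merged exon lengths, and log2(TPM + 1) understates ratios of low genes. Promoters are from RefSeq (GRCm38.p6).

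For the ratio of the libraries, counts were rounded, filtered with filterByExpr and scaled by TMM in edgeR 4.0.16 (R 4.3.3). Each gene was tested with a two-sided exact binomial test, with a prior count of 0.5 in the ratio. With 1 library a side, edgeR's quasi-likelihood test has no residual degrees of freedom. Intervals (95%, Poisson or Clopper-Pearson) and the limit of 3 counts cover counting error only, and not variation between libraries. PCR copies of a read are not independent molecules, so the counting error itself may be larger than these show.

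The genes, lists, pairs and tests were chosen with earlier results of these data known. The genes named are all 42 matches, the markers, and the 2 highest and 2 lowest genes of each other list, except for 2 genes whose own values are not reported here, and Taf1 was named after its values were seen. Alternatives were CPM, the longest transcript, another pseudocount or threshold, DESeq2 1.42.0 size factors, library totals, no filter, no fold minimum, a negative binomial test and each library left out.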

Additional observations from a re-analysis of the deposited data

How the results depend on the processing

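The median level of the 36 genes, 5.09 on the log2(TPM + 1) scale, was 5.98 with CPM and 5.26 with the longest transcript, and 5.05 to 5.13 with either library left out. The lead of the acetyltransferase median over the deacetylase median, 1.04, was 0.87 with CPM, 0.92 with the longest transcript and 0.98 to 1.10 with either library left out. CPM and the longest transcript change only the length by which counts are divided. The number of expressed genes, 34, ranged from 31 at a threshold of 5 to 36 with CPM or with any count above 0, and was 34 and 36 with 1 library left out. Of the 12 paralogue differences, 3 turned direction with CPM (Hdac4 minus Hdac5 at 0.38, Kat6a minus Kat6b at -0.66 and Sirt1 minus Sirt6 at 0.55) and 1 with the longest transcript (Kat6a minus Kat6b at -0.87). None turned with a pseudocount of 0.1 or with a library left out. Of those that kept direction, 6 with CPM, 8 with the longest transcript and 4 with the pseudocount shifted by more than their SD. Hdac1 minus Hdac2, at -1.98, was -2.36 with CPM and -1.69 with the longest transcript. The SD of a difference thus covers the libraries and not the choice of processing. Without a fold minimum, 1 of the 34 genes of the set that were tested and 955 of all 12182 tested genes differed between the libraries, in place of 0 and 82. All genes called were 211 with no filter on low counts and 13 with the negative binomial test, and the cause was not tested. The median log2 ratio of the genes stayed between 0.003 and 0.007 under the other scalings and without the filter. Genes under about 30 counts, such as Hdac10, Kat2b, Hdac7 and Sirt5, are limited by depth. No paired analysis was possible because the samples form 1 group.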
